A study of Mus musculus with 2 samples.

Results

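The genes described here carry fatty acids into muscle and break them down in mitochondria. They are 36 named genes, taken as a list by symbol: Cd36, Lpl, Slc27a1, Slc27a4 and Fabp3 for uptake and binding, Acsl1, Acsl3, Acsl4, Acsl5 and Acsl6 for activation, Cpt1a, Cpt1b, Cpt1c and Cpt2 for the carnitine shuttle, and 22 genes of the oxidation spiral and its surroundings. All 36 were found among the 55536 annotated genes of the gene tables. RNA came from the gastrocnemius, a calf muscle made mostly of fast fibres, of 14-day-old female B6CASTF1/J mice, hybrids bred from C57BL/6J and CAST/EiJ parents, with no treatment and no altered allele named. There was 1 group with 2 libraries, replicates 1 and 2, so the data answer at what level each gene was present and how far the libraries differed, and no age, tissue or treatment was compared. Both library descriptions name 3 females, but the tissue text of replicate 2 names 1 female, and both carry the same donor label, so pooled and single animals could not be told apart. The gene counts summed to 35592003 in replicate 1 and 42105856 in replicate 2. Levels are given in TPM, a measure of transcript number that allows for gene length, as replicate 1 and then replicate 2, or as mean ± SD (n = 2).

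Lipoprotein lipase on the vessel wall frees fatty acids from circulating lipoproteins, CD36 and the fatty acid transport proteins help them across the membrane, and FABP3 carries them through the cytosol. Acyl-CoA synthetases join them to coenzyme A, and CPT1, the step held back by malonyl-CoA, moves the acyl group onto carnitine so that it can enter the mitochondrion, where CPT2 returns it to coenzyme A. Each turn of the spiral then removes an acetyl unit through a dehydrogenase, a hydratase, a second dehydrogenase and a thiolase, and the electrons of the first step pass through the electron transfer flavoprotein to the respiratory chain. Many of these genes are known targets of the PPAR and ERR nuclear receptors, which bind DNA at copies of a short half-site, AGGTCA.

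The promoters of the neighbouring uncoupling protein genes are shown because Ucp3 had the lowest ratio between the libraries of the 36 genes and Ucp2, next to it, a ratio near 1. Ucp3 lies on chromosome 7, 100472990 to 100486432 of mm10, and Ucp2 at 100493337 to 100502020, both on the plus strand with 6904 bases between them. The lines give the 250 bases before each RefSeq start on GRCm38.p6, plus strand, 5′ to 3′, at chr7:100472741-100472990 for Ucp3 and chr7:100493108-100493357 for Ucp2, with AGGTCA in capitals.
Ucp3: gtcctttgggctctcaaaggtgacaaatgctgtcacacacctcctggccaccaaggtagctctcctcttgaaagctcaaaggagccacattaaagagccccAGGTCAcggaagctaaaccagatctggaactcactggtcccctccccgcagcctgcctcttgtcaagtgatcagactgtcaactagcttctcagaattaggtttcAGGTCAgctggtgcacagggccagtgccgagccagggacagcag
Ucp2: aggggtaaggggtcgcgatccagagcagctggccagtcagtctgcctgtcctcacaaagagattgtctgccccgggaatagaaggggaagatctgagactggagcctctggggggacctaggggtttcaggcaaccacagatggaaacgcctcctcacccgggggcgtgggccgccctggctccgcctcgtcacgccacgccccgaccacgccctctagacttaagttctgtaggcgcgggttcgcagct
The Ucp3 window holds AGGTCA at 2 places, with first bases 149 and 44 bases before the start, and the Ucp2 window holds none on either strand. RefSeq windows were matched for 30 of the 36 genes, 35 windows in all, with none for Acaa2, Acad9, Decr1, Acot13, Lpl and Cpt1b. AGGTCA, searched on both strands, was in 8 of the 35 windows (22.9%), against 14% of 32851 windows of all genes. These 8 belong to Acadm, Acadvl, Acsl6, Cd36, Cpt1a, Cpt1c, Echs1 and Ucp3. The RefSeq start lay within 100 bases of the start of the most abundant transcript for 26 of the 35 windows. It lay further away for the windows of Acsl6 and Cd36 with a match. The windows of Hadha and Hadhb cover largely the same bases. The tandem form AGGTCANAGGTCA was in 0 of the 35 windows and in 11 of all windows (0.0335%). The log2 ratios between the libraries of the 8 genes with a match ran from -1.26 for Ucp3 to -0.08 for Cpt1a. Fabp3 (-1.06) and Slc27a1 (-0.99) held no match. Whether matches go with the ratio was not tested. These matches describe letters in a short window and do not show binding.

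All 36 genes reached 1 TPM in both libraries, 31 reached 5 TPM, 29 reached 10 TPM and 12 reached 100 TPM. Their summed TPM was 3362 in replicate 1 and 2374 in replicate 2 (2868 ± 699), or 0.341% and 0.240% of the TPM of all genes. Fabp3 was highest in both libraries at 601 and 323 TPM, and without it the sum was 2761 and 2052. The 10 highest genes held 66.3% and 62.4% of the sum, and 9 of these 10 were shared between the libraries. Cpt1c was lowest, at 1.17 and 1.11 TPM, from 84 and 98 counts. The direct quantification, a second set of estimates from the same reads, gave every member a higher mean TPM than the gene tables, by 1.08 to 2.20 times with a median of 1.40. In bulk tissue, fewer cells of a type and less RNA per cell cannot be told apart.

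**Figure D1:**
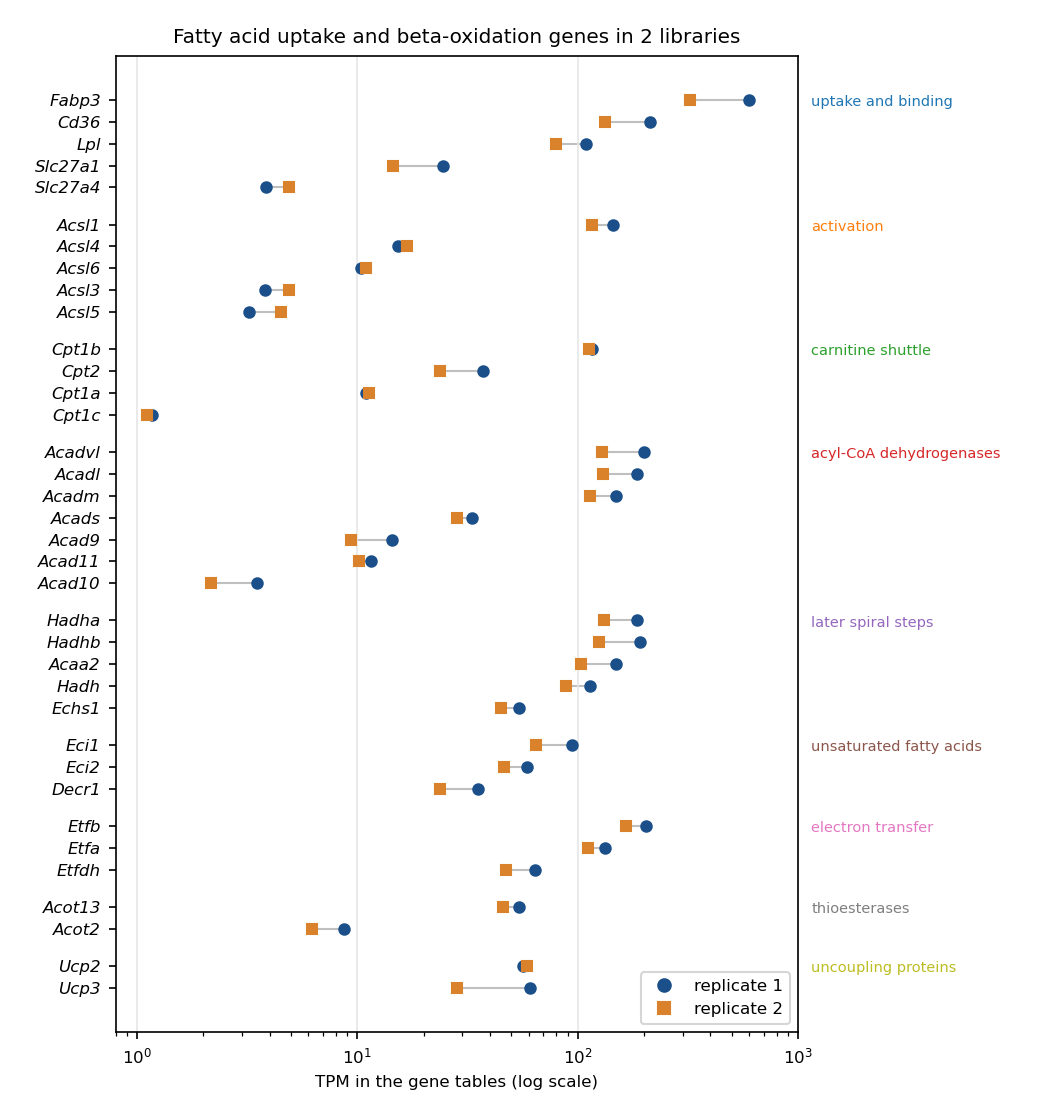
TPM of each of the 36 genes (log axis), grouped by role, with circles for replicate 1, squares for replicate 2 and a grey line joining them. Fabp3 stands highest at 601 and 323 TPM and Cpt1c lowest at 1.17 and 1.11 TPM, and 29 of the 36 genes have the lower TPM in replicate 2.

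Most of the route was lower in replicate 2. The log2 ratio of replicate 2 over replicate 1, from counts scaled between libraries by TMM, was below 0 in 33 of 36 genes and above 0 in 3. Its median was -0.52, beside 0.01 over all 15734 genes tested, of which 48.6% were below 0. The exact binomial interval, which covers counting error only, lay wholly below 0 in 29 genes, wholly above 0 in 2 and across 0 in 5. A two-sided exact binomial test, adjusted over all genes tested and joined to a 2-fold limit, called Ucp3 and Fabp3 lower, beside 1.56% of all genes tested, and 0 members higher, beside 1.74%. At a 1.5-fold limit it called 16 members lower, beside 3.54% of all genes, and 0 higher, beside 4.37%. These tests compare 2 libraries of 1 group, so none of them speaks for animals beyond these samples. Markers moved between the libraries too: the 5 blood markers summed to 2947 and 1495 TPM and the 10 slow-fibre markers to 1818 and 2953 TPM, and their part in the members' ratios was not tested.

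Split at a mean of 20 TPM, the more abundant members had the lower median ratio. The 24 with a mean TPM of at least 20 were all below 0, beside 59.5% of the 2951 genes of all kinds at that level. The median of these members was -0.60, while that of the 2951 genes was -0.04 and their 5th percentile -0.51. Of the 12 members under 20 TPM, 9 were below 0, with a median of -0.15. The order was not strict, since Slc27a1 at a mean of 19.6 TPM had -0.99 and Ucp2 at 57.9 TPM had -0.02. Over all genes the median also fell with abundance, from -0.004 at 1 TPM or more to -0.098 at 100 TPM or more. TPM itself was lower in replicate 2 for 29 members, with the deposited intervals apart for 25 of them, and higher with intervals apart for 1, Slc27a4. Scaling mattered for the size of these differences. Against TMM, scaling by total gene counts moved the median of all genes by 0.13 and scaling by spike-in counts by 0.22. Such a scaling adds a constant to every gene's log2 ratio, so the distance between the members' median and that of all genes, -0.52, is fixed by construction. With spike-in scaling 28 members were below 0, beside 20.4% of all genes tested, and 4 were called lower at 1.5-fold, Cd36, Fabp3, Slc27a1 and Ucp3, beside 2.01%. With total counts 30 members were below 0, beside 30.1%, and 9 were called lower at 1.5-fold, beside 2.54%. At 2-fold, 1 member was called lower under either scaling, beside 1.19% of all genes with total counts and 0.941% with spike-in counts.

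**Figure D2:**
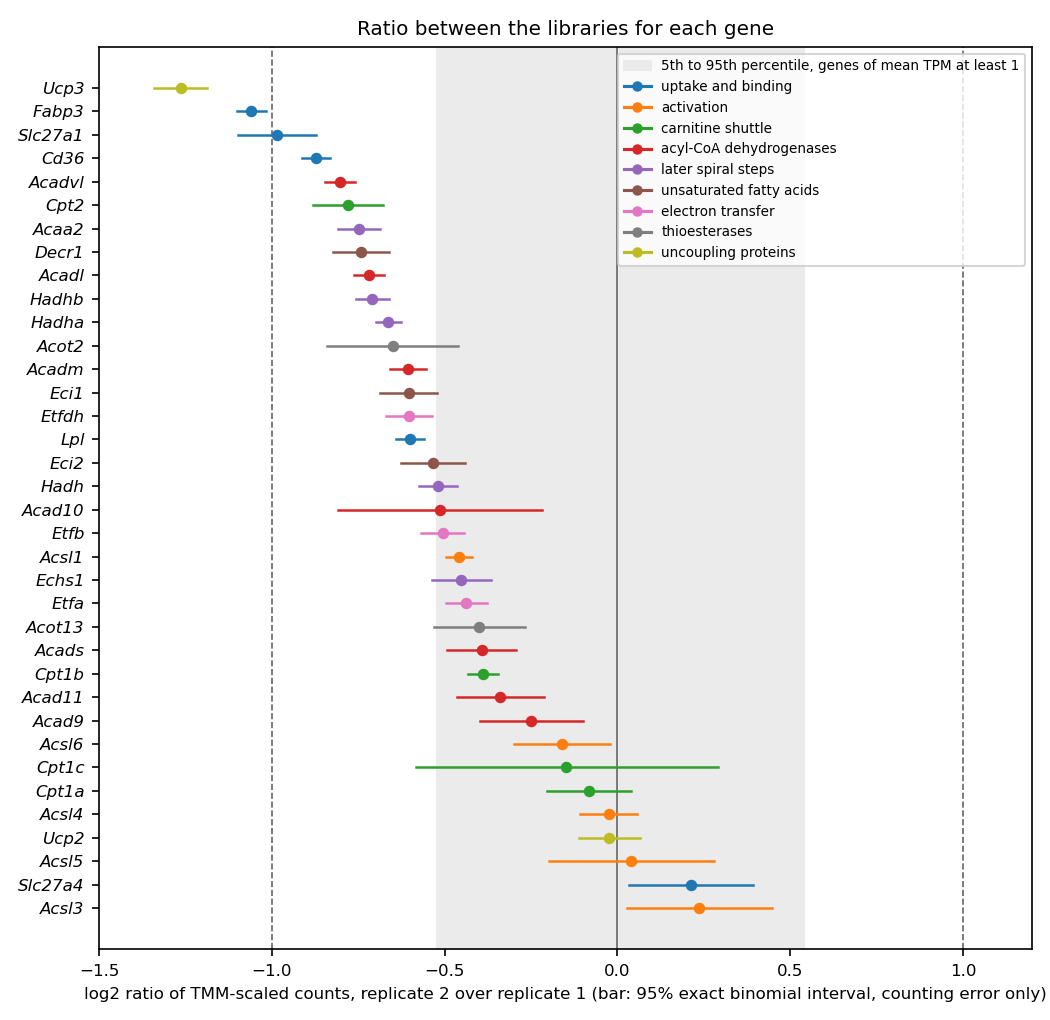
Log2 ratio of TMM-scaled counts, replicate 2 over replicate 1, for each of the 36 genes, coloured by role, with 95% exact binomial intervals as bars and the 5th to 95th percentile of genes of at least 1 TPM as a grey band (-0.52 to 0.54). The points run from -1.26 for Ucp3 to 0.24 for Acsl3, with 33 left of 0.

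The uptake and binding genes held the largest share of the sum, 28.3% and 23.4%, and had the lowest median ratio of the roles with at least 3 genes, -0.87. Fabp3, the cytosolic fatty acid carrier of heart and muscle, lies on chromosome 4, 130308595 to 130315463, plus strand. It had a log2 ratio of -1.06 (interval -1.10 to -1.02), and its TPM of 601 in replicate 1 lay above its own deposited interval of 577 to 598. It missed the 2-fold limit with total-count or spike-in scaling. Fabp3 overlaps Zcchc17 on the opposite strand, which stood at a mean of 20.4 TPM. Cd36, the fatty acid translocase, measured 214 and 133 TPM, with a ratio of -0.87 (-0.91 to -0.83). Lpl, the lipase itself, measured 109 and 80.1 TPM, with a ratio of -0.60 (-0.64 to -0.56). Each of these 3 was lower in replicate 2 by more than its counting error. The transport proteins split. Slc27a1 (FATP1), the form known from muscle and fat, measured 24.6 and 14.6 TPM, with a ratio of -0.99. Slc27a4 (FATP4) measured 3.86 and 4.92 TPM, with a ratio of 0.21 (0.03 to 0.39), which did not pass the exact test after adjustment (adjusted p = 0.0626). Slc27a1 was therefore 6.37-fold above Slc27a4 in replicate 1 and 2.96-fold in replicate 2.

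Activation rested on Acsl1, the main long-chain acyl-CoA synthetase of oxidative tissues, at 145 and 116 TPM. It held 78.7% ± 4.04 of the TPM of the 5 Acsl genes (81.5% and 75.8%). Acsl4, which prefers arachidonic acid, stood at 15.3 and 16.8 TPM, Acsl6 at 10.5 and 10.9 TPM, Acsl3 at 3.83 and 4.88 TPM and Acsl5 at 3.24 and 4.51 TPM. Acsl1 lay 9.45-fold and 6.92-fold above Acsl4, 13.9-fold and 10.6-fold above Acsl6, 37.8-fold and 23.9-fold above Acsl3, and 44.7-fold and 25.8-fold above Acsl5. The direct quantification put Acsl3 higher, at a mean of 9.59 TPM, and Acsl1 21.8-fold and 17.4-fold above it. In the gene table of replicate 2 the TPM of Acsl3 lay below its own deposited interval of 4.93 to 7.33. The order of the lower 4 was the same in both libraries, although Acsl3 and Acsl5 had overlapping intervals in each. Acsl1 had a ratio between libraries of -0.46 (-0.50 to -0.42) and was the only one of the 5 past an adjusted p of 0.05 in the exact binomial test, with no fold limit. Acsl6 had -0.16 and Acsl4 -0.03, and both turned to above 0 with spike-in scaling (0.06 and 0.19). Acsl5 had 0.04 and Acsl3 0.24 (0.03 to 0.45, adjusted p = 0.0788 by the exact binomial test). Acsl6 overlaps Gm12224 on the opposite strand at a mean of 19.4 TPM and Acsl5 overlaps Zdhhc6 at 8.22 TPM. In all 20 of the 36 genes overlap another annotated gene, and whether counting used the strand is not given in the sources used here.

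Entry into the mitochondrion was led by Cpt1b, the muscle form of the gatekeeper, at 117 and 112 TPM, on chromosome 15, 89416405 to 89425863, minus strand. It held 90.3% ± 0.342 of the TPM of the Cpt1 genes. Cpt1a, the liver form, stood at 10.99 and 11.25 TPM, 10.6-fold and 9.97-fold below, and Cpt1c, a form known mainly from brain, 99.6-fold and 101-fold below. Cpt2, the inner-membrane partner, stood at 37.3 and 23.6 TPM. Between the libraries, Cpt2 had a ratio of -0.78 (-0.88 to -0.68), Cpt1b -0.39 (-0.43 to -0.35), and these intervals did not overlap, while those of Cpt1a (-0.20 to 0.04) and Cpt1c (-0.58 to 0.29) held 0. The TPM intervals of Cpt1b overlapped between the libraries. Its coding transcript Cpt1b-201 measured 107 and 90.2 TPM, and the 339-base retained-intron Cpt1b-202 5.56 and 17.3 TPM. The direct quantification gave Cpt1b 160 and 131 TPM, or 90.4% and 88.0% of the Cpt1 genes.

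The dehydrogenases of the first step held 17.8% of the sum in each library. They are graded by the length of the acyl chain they take. Acadvl (very long) measured 201 and 130 TPM, Acadl (long) 186 and 130 TPM, Acadm (medium) 149 and 114 TPM and Acads (short) 33.2 and 28.3 TPM. Of these 4 genes' TPM, Acadvl held 33.8% ± 2.15, Acadl 32.5% ± 0.165, Acadm 27.2% ± 1.46 and Acads 6.45% ± 0.856. Acadl and Acadvl were apart in replicate 1 and not in replicate 2, while Acadm stood below Acadl and 4.49-fold and 4.01-fold above Acads with intervals apart in both. In the direct quantification Acadl was below Acadvl in both libraries, with log2 ratios of -0.46 and -0.21. The ratios between libraries were -0.80 for Acadvl, -0.72 for Acadl, -0.61 for Acadm and -0.39 for Acads, all with intervals below 0. Acad9, best known for its part in assembling complex I, stood at 14.3 and 9.36 TPM, 14.0-fold and 13.8-fold below Acadvl. These folds are log2 ratios of 3.81 and 3.79, where the direct quantification gave 4.43 and 4.07. The 552-base transcript Acad9-205 held 31.15% of Acad9 in replicate 1 and 7.35% in replicate 2. Acad11 stood at 11.5 and 10.2 TPM and Acad10 at 3.51 and 2.18 TPM. These 3 had ratios of -0.25, -0.34 and -0.51. Reads of Acad9 and Acad10 were shared with other features, with a posterior SD of 1.42% and 3.02% of the count.

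The later steps held 20.7% and 20.8% of the sum. Hadha and Hadhb, the alpha and beta subunits of the trifunctional protein that handles long chains, lie head to head on chromosome 5, at 30118304 to 30155162 on the minus strand and 30155248 to 30184593 on the plus strand, with 85 bases between the gene models. Their levels were 186 and 132 TPM for Hadha and 193 and 126 TPM for Hadhb. The deposited intervals of the subunits overlapped in both libraries, and their ratios between libraries were -0.66 and -0.71. The direct quantification put Hadhb above Hadha in both libraries (log2 Hadha over Hadhb -0.61 and -0.43). In counts not divided by length Hadha stood above Hadhb instead, with a mean log2 ratio of 0.80. In the gene tables the 507-base retained-intron Hadhb-208 held 31.0% and 25.9% of Hadhb, from 686 and 432 counts. The order of the subunits thus depended on the unit. Hadh, the short-chain hydroxyacyl-CoA dehydrogenase, measured 114 and 88.8 TPM (ratio -0.52). Echs1, the short-chain hydratase, measured 54.2 and 44.7 TPM (ratio -0.45). Acaa2, the mitochondrial thiolase, measured 149 and 103 TPM (ratio -0.75). Each stood below the trifunctional subunit of the same activity with intervals apart in both libraries.

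Unsaturated fatty acids need extra enzymes to move or remove double bonds. Eci1, an enoyl-CoA isomerase, measured 94.2 and 65.0 TPM, and Eci2, found in mitochondria and peroxisomes, 58.8 and 46.2 TPM, so that Eci1 was 1.603-fold and 1.408-fold higher. Decr1, the dienoyl-CoA reductase, measured 35.2 and 23.8 TPM. Their ratios between libraries were -0.60, -0.53 and -0.74.

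The electron transfer genes held 12.0% and 13.7% of the sum. Etfb measured 205 and 166 TPM and its partner subunit Etfa 133 and 111 TPM, 1.54-fold and 1.49-fold apart per length. Without division by length the order turned, with a log2 ratio of -0.12 in CPM. Etfdh, which passes the electrons on to ubiquinone, measured 63.9 and 47.4 TPM. The ratios were -0.51, -0.44 and -0.60, all with intervals below 0.

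Of the thioesterases, which release fatty acids from coenzyme A, Acot13 measured 54.2 and 45.9 TPM and Acot2, a mitochondrial form, 8.73 and 6.22 TPM. Acot13 stood 6.21-fold and 7.39-fold above Acot2, and their ratios between libraries were -0.40 and -0.65. Reads of Acot2 were shared, with a posterior SD of 1.66%.

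The uncoupling proteins stood level in replicate 1 and apart in replicate 2. Ucp3, the muscle form, measured 60.7 and 28.3 TPM, from 3905 and 2101 counts. Ucp2, the widely expressed form, measured 56.6 and 59.1 TPM, from 1808 and 2300 counts. Ucp3 was thus 1.07-fold of Ucp2 in replicate 1, with overlapping intervals, and 0.479-fold in replicate 2, with intervals apart. The direct quantification put Ucp3 below Ucp2 in both libraries, with log2 ratios of -0.452 and -1.502, while in counts not divided by length Ucp3 was 2.16-fold of Ucp2 in replicate 1 and 0.913-fold in replicate 2. The ratio of Ucp3 was -1.26 (-1.34 to -1.19), with 1.09% of genes tested as low or lower, and that of Ucp2 was -0.02 (-0.11 to 0.07). The promoter windows printed above belong to this pair. Ucp1, the brown-fat form, had 0 counts in both libraries, where a count of 0 allows up to 3.

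**Figure D3:**
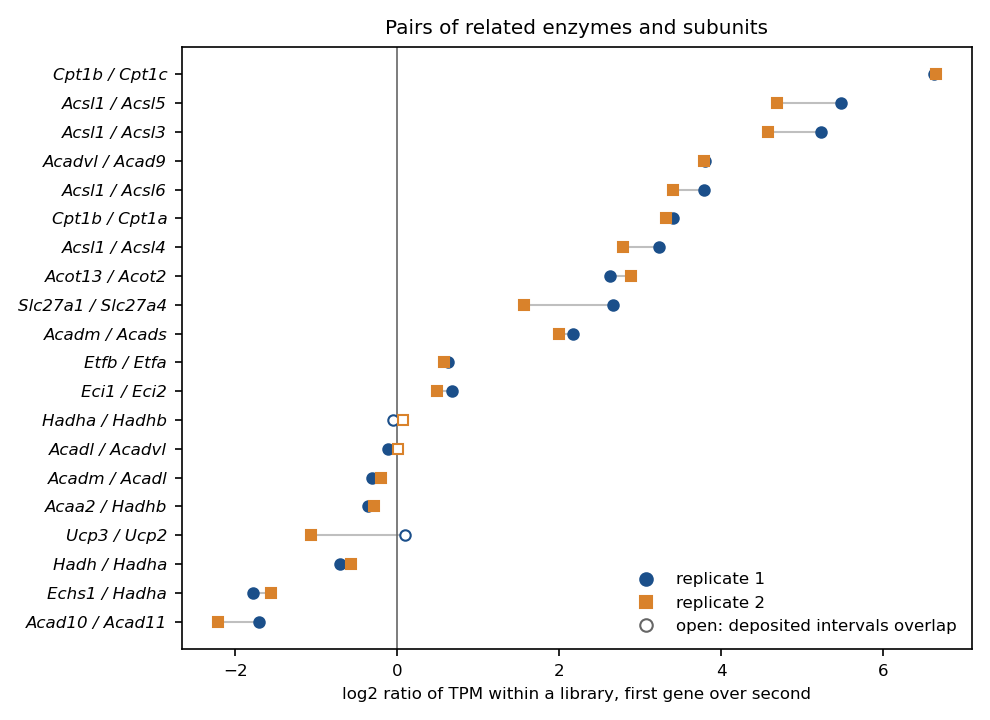
Log2 ratio of TPM within a library for 20 pairs of related enzymes or subunits, with circles for replicate 1, squares for replicate 2 and open symbols where the deposited intervals of the genes overlap. In 17 of the 20 pairs both symbols lie on the same side of 0 and are filled, and Ucp3 over Ucp2 moves from 0.10 to -1.06.

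Of 20 pairs of related genes compared within a library, 17 had the same order in both, each with intervals apart in both. The exceptions were Acadl with Acadvl, Hadha with Hadhb, and Ucp3 with Ucp2. In 15 of the 20 pairs the genes were closer together in replicate 2.

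The other lists of lipid metabolism had medians below 0. These lists, like the members, were chosen with earlier results of these data known. Their ratios are therefore no independent support for those of the members. Of all genes tested, 3.54% were called lower and 4.37% higher at 1.5-fold, and 1.56% lower and 1.74% higher at 2-fold. Of 13 genes of lipid droplets and lipolysis, 6 were called lower and 1 higher at 1.5-fold, and 3 lower at 2-fold, with a median ratio of -0.53. These 3 were Dgat2, which makes triglyceride, at 21.6 and 9.26 TPM (-1.42), Plin5, a droplet coat protein of oxidative tissue, at 17.5 and 8.57 TPM (-1.19), and Lpin1, at 44.9 and 22.5 TPM (-1.13). Pnpla2, the first lipase of the droplet, measured 153 and 91.5 TPM (-0.92), Plin4 109 and 61.7 TPM (-0.99) and Gpam 71.6 and 57.5 TPM (-0.43). The hormone-sensitive lipase Lipe (-0.75) was the sixth called lower, and G0s2, an inhibitor of Pnpla2, was the one called higher (0.68). Of 8 PPAR-responsive genes outside the members, 4 of which also stand in another list (Acot1, Ehhadh, Plin2 and Slc25a20), 4 were called lower at 1.5-fold and 2 at 2-fold, with a median of -0.58. Pdk4, which restrains pyruvate entry and rises in fasting, measured 641 and 154 TPM, a ratio of -2.19 (-2.22 to -2.16), and Angptl4, an inhibitor of Lpl, 8.91 and 4.66 TPM (-1.07). Txnip (-0.46) and the carnitine-acylcarnitine carrier Slc25a20 (-0.71, at 42.1 and 28.7 TPM) completed the 3 most abundant of that list. With spike-in scaling 1 droplet gene and 1 of the PPAR-responsive genes were called lower at 2-fold, beside 0.941% of all genes tested.

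Of 7 carnitine genes tested, 2 were called lower at 1.5-fold, Slc25a20 and Tmlhe (-0.70), with a median of -0.37. For these lists, too, the share of all genes tested that was called lower at 1.5-fold was 3.54%. Crat, carnitine acetyltransferase, measured 159 and 123 TPM (-0.49), and Crot 13.6 and 13.3 TPM (-0.18). Of 9 genes tested in the list of other uptake and binding genes, 0 passed 1.5-fold (median -0.26). The most abundant of that list were Got2 (200 and 163 TPM), Fabp4 (159 and 122 TPM) and Dbi (96.74 and 95.01 TPM). Of 18 other acyl-CoA enzymes, 2 were called lower, Acss1 (-0.88) and Acot11 (-0.68), with a median of -0.35. The list was led by Hsd17b10, Acadsb and Ivd at ratios of -0.21, -0.30 and -0.51. Of 15 peroxisomal genes, 1 was called lower, Phyh (-0.81), with a median of -0.22 that became 0.00 with spike-in scaling. Scp2 of that list had -0.44. Of 16 regulators, 3 were called lower, with a median of -0.26: Mlycd (-0.62), which removes malonyl-CoA, Acacb (-0.65), which makes it, and Pparg (-0.96). Prkaa2, a catalytic subunit of AMPK and the most abundant of the list, had -0.10. Of 4 ketone-use genes, 0 passed 1.5-fold (median -0.36), led by Oxct1 (-0.57) and Acat1 (-0.43).

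The citric acid cycle, which burns the acetyl units, had all 18 genes below 0 in a narrow range from -0.45 to -0.14, with a median of -0.35 and 0 called at either fold limit. With spike-in scaling its median was -0.13 and 17 genes were below 0. Mdh2 and Sdhc, among the most abundant, had -0.30 and -0.25. Of 15 glycolysis genes, 2 were called lower at 1.5-fold, Ldhb (-0.75) and Hk2 (-0.59), beside 3.54% of all genes tested. The glycolysis median was -0.16 and turned to 0.06 with spike-in scaling. Aldoa, Gapdh and Eno3 had -0.37, -0.17 and -0.16. The members' median of -0.52 was thus below those of both lists, and no test compared the lists.

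**Figure D4:**
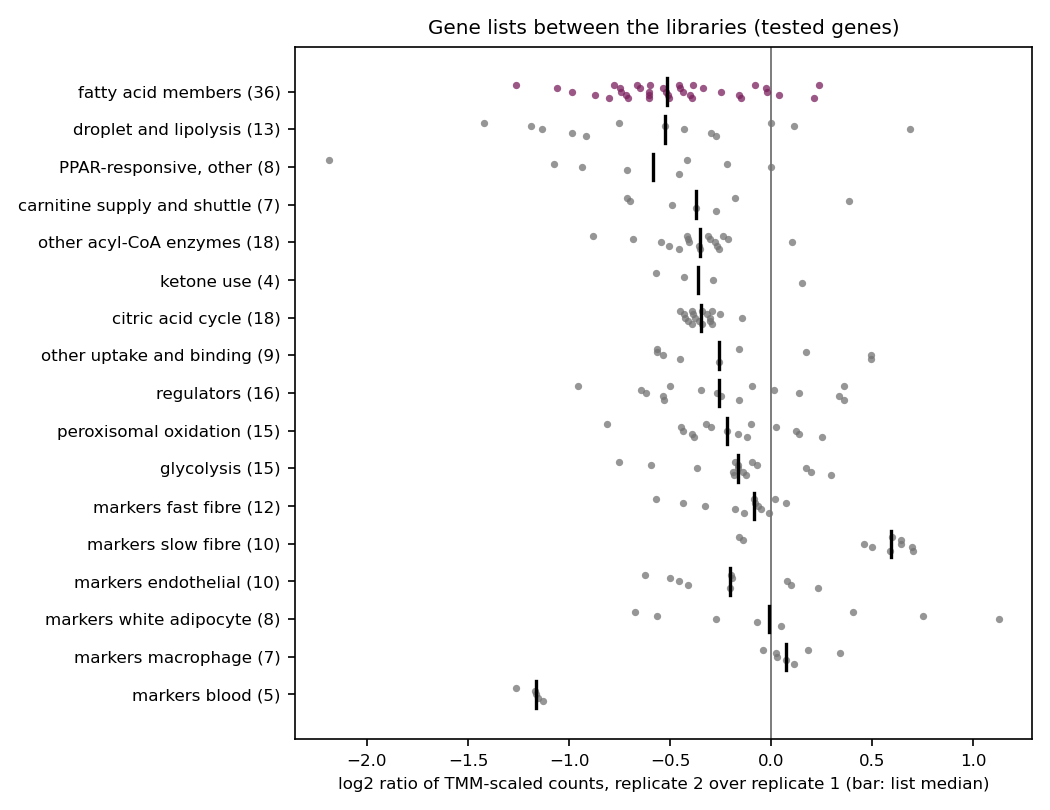
Log2 ratio of TMM-scaled counts, replicate 2 over replicate 1, for each tested gene of the member list, neighbouring pathways and cell type markers, with a bar at each list's median. The median is -0.52 for the 36 genes, -0.35 for the citric acid cycle, 0.59 for slow-fibre markers and -1.16 for the 5 blood markers.

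Markers of the tissue and of other cells moved with the libraries as well. The fast-fibre genes, among them Mylpf, Myl1 and Myh4, summed to 102883 and 108147 TPM and the slow-fibre genes, led by Myl2, Myh7 and Myl3, to 1818 and 2953 TPM, so the muscle label was met. Of 10 slow-fibre markers, 6 were called higher in replicate 2 at 1.5-fold (median 0.59), beside 4.37% of all genes tested. The fast-fibre median was -0.08, or 0.14 with spike-in scaling. The 12 fast-fibre ratios were not uniform and ran from -0.57 for Myh1, with Myh2 at -0.44, to 0.08 for Pvalb. All 5 blood markers were called lower at 2-fold, beside 1.56% of all genes tested, with a median of -1.16 and summed TPM of 2947 and 1495. With spike-in scaling their median was -0.94. All 5 were then called lower at 1.5-fold and 1 of them at 2-fold, beside 2.01% and 0.941% of all genes tested. They are Alas2 (-1.16) and the globin genes Hba-a1, Hba-a2, Hbb-bs and Hbb-bt, near-identical copies whose shares of reads are uncertain. Of the 4 liver genes, 2 had enough counts to be tested, Alb (43 and 3 counts) and Cyp2e1 (22.5 and 5 counts). Both were called lower at 2-fold, beside 1.56% of all genes tested, from levels under 1 TPM. Apoa1, not tested, had 9 counts and 1. The white adipocyte list summed to 173 and 138 TPM, nearly all of it Fabp4, which endothelial cells also express, with Cfd at 6.96 and 8.09, Pck1 at 2.75 and 1.58 and Adipoq at 1.59 and 1.91 TPM. Of its 8 tested genes, Pck1 (-0.67) was called lower at 1.5-fold and Plin1 (0.75) higher. Of all genes tested, 3.54% were called lower and 4.37% higher at that limit. The brown adipocyte list stood at 1.82 and 1.75 TPM, nearly all of it Cidea. The endothelial list, with Cdh5, Pecam1 and Egfl7 at the top of its 10 genes, summed to 255 and 240 TPM and the 7 macrophage markers, led by Mrc1, Csf1r and C1qb, to 45.3 and 55.7 TPM. Of the 10 endothelial genes, 1 was called lower at 1.5-fold, Flt1 (-0.62). Of the heart list, Myl7, Nppa and Nppb had 0 counts, and Myh6, Tnnt2 and Tnni3 summed to 73.3 and 118 TPM.

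The transcript measured for each gene was mostly the same in both libraries. Of 227 annotated transcripts of the 36 genes, the most abundant one was shared for 34 genes, and for 28 genes it was the same in both libraries and both quantifications. For 18 genes it made up at least 80% of the gene in both libraries, among them Ucp3-201 (91.0% and 90.8%), Cpt1b-201 (91.9% and 80.4%) and Acadl-201 (100% and 95.7%). Only 10 of these 18 also reached 80% in both libraries in the direct quantification, which gave Ucp3-201 76.5% and 77.0%, Cpt1b-201 75.3% and 77.3%, and Acadl-201 86.7% and 79.6%. Fabp3 and Acot2 have 1 annotated transcript each, so they count in the 34, 28 and 18 by annotation alone. In the gene-based tables the leading transcript was not annotated as protein-coding for Hadha, where the processed transcript Hadha-201 held 71.2% and 73.9% and the coding Hadha-205 21.2% and 19.2%, nor for Acad10 in replicate 1, where the retained-intron Acad10-206 held 48.5%. In replicate 2 the coding Acad10-202 led with 47.8%. The direct quantification instead put Acad10-206 first in both libraries (68.6% and 52.8%), with Acad10-202 at 0, and for Hadhb it put the retained-intron Hadhb-208 first in both (55.6% and 49.2%). Cpt1c, with few reads, changed from Cpt1c-206 (66.2%) to Cpt1c-201 (91.8%). For Cd36, Cd36-203 led with 46.4% and 47.5%, while the direct quantification gave it 8.03% and 11.5% and put Cd36-202 (36.02% in replicate 1) or Cd36-205 (34.37% in replicate 2) first.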

How the data were processed

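Total RNA-seq of 2 gastrocnemius libraries was used as deposited, on mm10 with the GENCODE M21 annotation per the accompanying notes. What is not given in the sources used here is which aligner and quantifiers ran, at what interval level and with what strand setting. The authors deposited expected counts per gene, in which a read that fits several genes is divided among them, and TPM. Their deposited tables add a posterior mean TPM with interval bounds and the posterior SD of each count (score values), and, per the file headers, an isoform percent for each transcript. Estimated counts and TPM of another deposited transcript table were added up by gene (the direct quantification). Reads from CAST/EiJ alleles were mapped to a C57BL/6J reference, with unmeasured loss. A further 26249 rows that name no gene, holding 2 and 0 counts, were left out. Spike-ins held 285877 and 317175 counts.

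Expected counts were rounded. TMM factors from edgeR 4.0.16, 0.957 and 1.05, set the library sizes. DESeq2 1.42.0 size factors, total counts and spike-in counts served as alternatives, as did no filter, a filter of 100 counts, the direct quantification, posterior mean TPM, CPM, TPM over nuclear protein-coding genes and each replicate left out. Python 3.11.15 with scipy 1.17.1, numpy 2.4.6 and pandas 2.3.3, and R 4.3.3, were used. A quasi-likelihood fit in edgeR has no residual degrees of freedom with a lone library per side. Genes with a summed count of at least 20 were therefore compared by a two-sided exact binomial test, adjusted by Benjamini-Hochberg. A call needed an adjusted p under 0.05 and a 2-fold ratio, or 1.5-fold where stated. Log2 ratios use a prior count of 0.5 and 95% Clopper-Pearson intervals. Both p-values and intervals cover only counting error, and the difference between the libraries may be technical. The script was tested on simulated data.

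A pair of genes counted as apart where the deposited intervals did not overlap. Reads were called shared where the posterior SD exceeded 1% of the count. Named genes are all 36 members and, of each other list, the 3 genes of highest mean TPM and every gene called at 2-fold; some genes this rule takes are not reported here. Lipe, G0s2, Tmlhe, Acss1, Acot11, Pparg, Ldhb, Hk2, Adipoq, Myh1, Myh2, Pvalb, Plin1, Flt1 and overlapping genes were named after their values were seen. The members and lists were chosen with earlier results of these data known.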

Additional observations from a re-analysis of the deposited data

How the results depend on the processing

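Members at 1 TPM numbered 36 in the direct quantification and in posterior mean TPM too, and 31 reached 5 TPM. Of the 17 pairs in the same order in both libraries, 16 kept that order in CPM. All 17 kept it in the direct quantification and in posterior mean TPM. The other pairs were not counted in these alternatives. Leaving out a replicate could not lower either count, since each already required both libraries. Summed TPM, 2868 in the gene tables, was 4194 in the direct quantification, 5903 over nuclear protein-coding genes, and 2374 to 3362 with either replicate left out. Members called at 2-fold were 2, but 1 with total counts and 1 with spike-in counts, which both lost Fabp3. Of all genes tested, 1.56%, 1.19% and 0.941% were called lower at 2-fold under these 3 scalings. At a 1.5-fold limit 16 members were called. Members past 1.5-fold and lower were 16, but 9 with total counts and 4 with spike-in counts, beside 3.54%, 2.54% and 2.01% of all genes tested. The median log2 ratio, -0.52, was -0.39 with total counts and -0.30 with spike-in counts. Ratios that turned to above 0 were Acsl4 (0.10 with total and 0.19 with spike-in counts), Ucp2 (0.10 and 0.20), Cpt1a (0.045 and 0.14), Acsl6 (0.061 with spike-in counts) and Cpt1c (0.071 with spike-in counts). In CPM, Etfb over Etfa turned to -0.12, Ucp3 over Ucp2 moved from -0.48 to 0.49 and Hadha over Hadhb from 0.01 to 0.80. Each moved since that unit is not divided by length. The causes of the other changes were not tested. DESeq2 size factors, a filter of 100 counts, no filter and the direct quantification kept each of these ratios on its side of 0. The most abundant transcript was shared between libraries for 34 members and across all tables for 28. With 1 group no paired analysis was possible because no other group shares the replicate numbers. Cpt1c, with 84 and 98 counts, is the member whose depth limits its ratio most.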
